A study of Homo sapiens with 18 samples.

Results

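The core spliceosome genes are the genes for the protein subunits of the small nuclear ribonucleoproteins (snRNPs) and for the factors that assemble and remodel them on a pre-mRNA. They were chosen by name: protein-coding symbols starting with SNRNP, SNRP, SF3A, SF3B or PRPF (without PRPF4B) or with LSM and a digit, plus U2AF1, U2AF2, SF1, EFTUD2, DDX23, CDC5L, CWC22, CWC27, AQR, SNW1, BUD31, DHX15, DHX16 and DHX38. In GENCODE 29, 67 genes met the rule, and 63 of the 12755 gene IDs of the table were among them. PRPF6, SF3B5, SNRPN and SNW1 were not analysed here. PRPF18 and LSM11 had a mean under 10 units over the libraries, so 61 members were tested.

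The libraries measured newly made polyadenylated RNA in MDA-MB-453, an established breast cancer cell line. Cells received DMSO or JQ1-VHL, a degrader of the BET bromodomain proteins, for 3 hours. The library titles call the drug dBET, and the series' own description calls it JQ1-VHL. The medium held 0.1 mM 4-thiouridine for the last 60 minutes, and after alkylation this base reads as a T-to-C change, so T-to-C reads mark RNA made in that time. Total, nuclear and cytoplasmic RNA was sequenced for each treatment, with 3 libraries in each of the 6 groups; the fractions were separated by permeabilising cells with 1 mg/ml digitonin. Every group is the same line with no genetic change named in the labels. Nothing in the labels says whether the 3 libraries of a group came from separate dishes, so the p-values cover the spread between these libraries alone, which may be technical.

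Splicing starts when the U1 snRNP pairs with the 5′ splice site, while SF1 and the U2AF heterodimer mark the branch point and the 3′ splice site for the U2 snRNP. The U4/U6.U5 tri-snRNP then joins, U1 and U4 leave, and the PRPF19 complex (NTC) with DEAH-box helicases drives the remodelling through catalysis. A ring of Sm proteins surrounds the RNA of U1, U2, U4 and U5, and a ring of LSM proteins binds U6; a minor spliceosome with U11 and U12 removes a small class of introns.

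A unit is a T-to-C read scaled by the ERCC factor of its library, summed over the numbered intervals of a gene. ERCC RNA was added by mass of RNA, so a unit is relative to the RNA mass of a sample rather than to its cell number. Neither the number of cells nor the RNA per cell can be read from it. The libraries held 1584517 to 6773386 T-to-C reads, the fewest in JQ1-VHL nuclear replicate 3, where 30.5% of intervals were at 0. Luminal markers of the line (FOXA1, GATA3, SPDEF, ERBB2, KRT8, KRT18, KRT19, EPCAM, CDH1) were all present in the table. Of markers of other cell types, COL1A1, a fibroblast collagen gene, had a mean of 470 units over the libraries (70.3 to 1035), above FOXA1 (339) and CDH1 (252); ALB had 35.4, TP63 5.82 and LYZ 0.968 units. Their part in the results was not tested. Members took 0.916% to 1.28% of the reads of a library. That share was 1.07 ± 0.0158% (SD, n = 3) in DMSO nuclear RNA and 1.04 ± 0.107% in JQ1-VHL nuclear RNA, a difference smaller than the spread of the latter. JQ1-VHL nuclear replicate 3 had the lowest share of all 18 libraries.

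On the ERCC scale new nuclear RNA of the members was lower under JQ1-VHL. The fitted log2 change was below 0 for all 61, with a median of -1.54 and a range from -3.86 to -0.47. At an adjusted p under 0.05 (limma), 20 of 61 members fell (32.8%) and 0 rose. Among all 10191 tested genes 33.7% were called lower and 0.177% higher, with a median change of -1.82, so the members' share is close to the background. The 3 JQ1-VHL libraries lay below the 3 DMSO libraries, with no overlap, for 42 of 61 members, against 71.2% of all genes. The 20 calls depended on single libraries: 0 members were called without JQ1-VHL nuclear replicate 3, 1 (SNRPE) without DMSO nuclear replicate 1, and 10 without DMSO nuclear replicate 2. The fitted median without JQ1-VHL nuclear replicate 3 was -0.98, with 60 of 61 members below 0.

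A scale that sets the typical gene near 0 separates the members from this common fall. After rescaling by the median of gene ratios, the nuclear median of all genes was -0.01, the total median -0.19 and the cytoplasmic median 0.05, against -1.82, -0.49 and -0.02 on the ERCC scale. On this scale 23 of 61 members (37.7%) were higher in JQ1-VHL nuclear RNA and 3 (4.92%) lower, against 18.2% and 12.6% of all genes. The members' median was 0.33. The libraries of both groups did not overlap on this scale for 29 members on the higher side, against 29.5% of all genes, and for 14 on the lower side, against 27.7%. With edgeR and TMM scaling, 17 members were higher and 7 lower, against 14.8% and 15.9% of all genes. Between 20 and 25 members were called on the rescaled values when each library was left out. Higher here means that the ERCC-scaled value fell by less than that of the typical gene, and every member called higher had an ERCC-scaled change below 0.

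**Figure D1:**
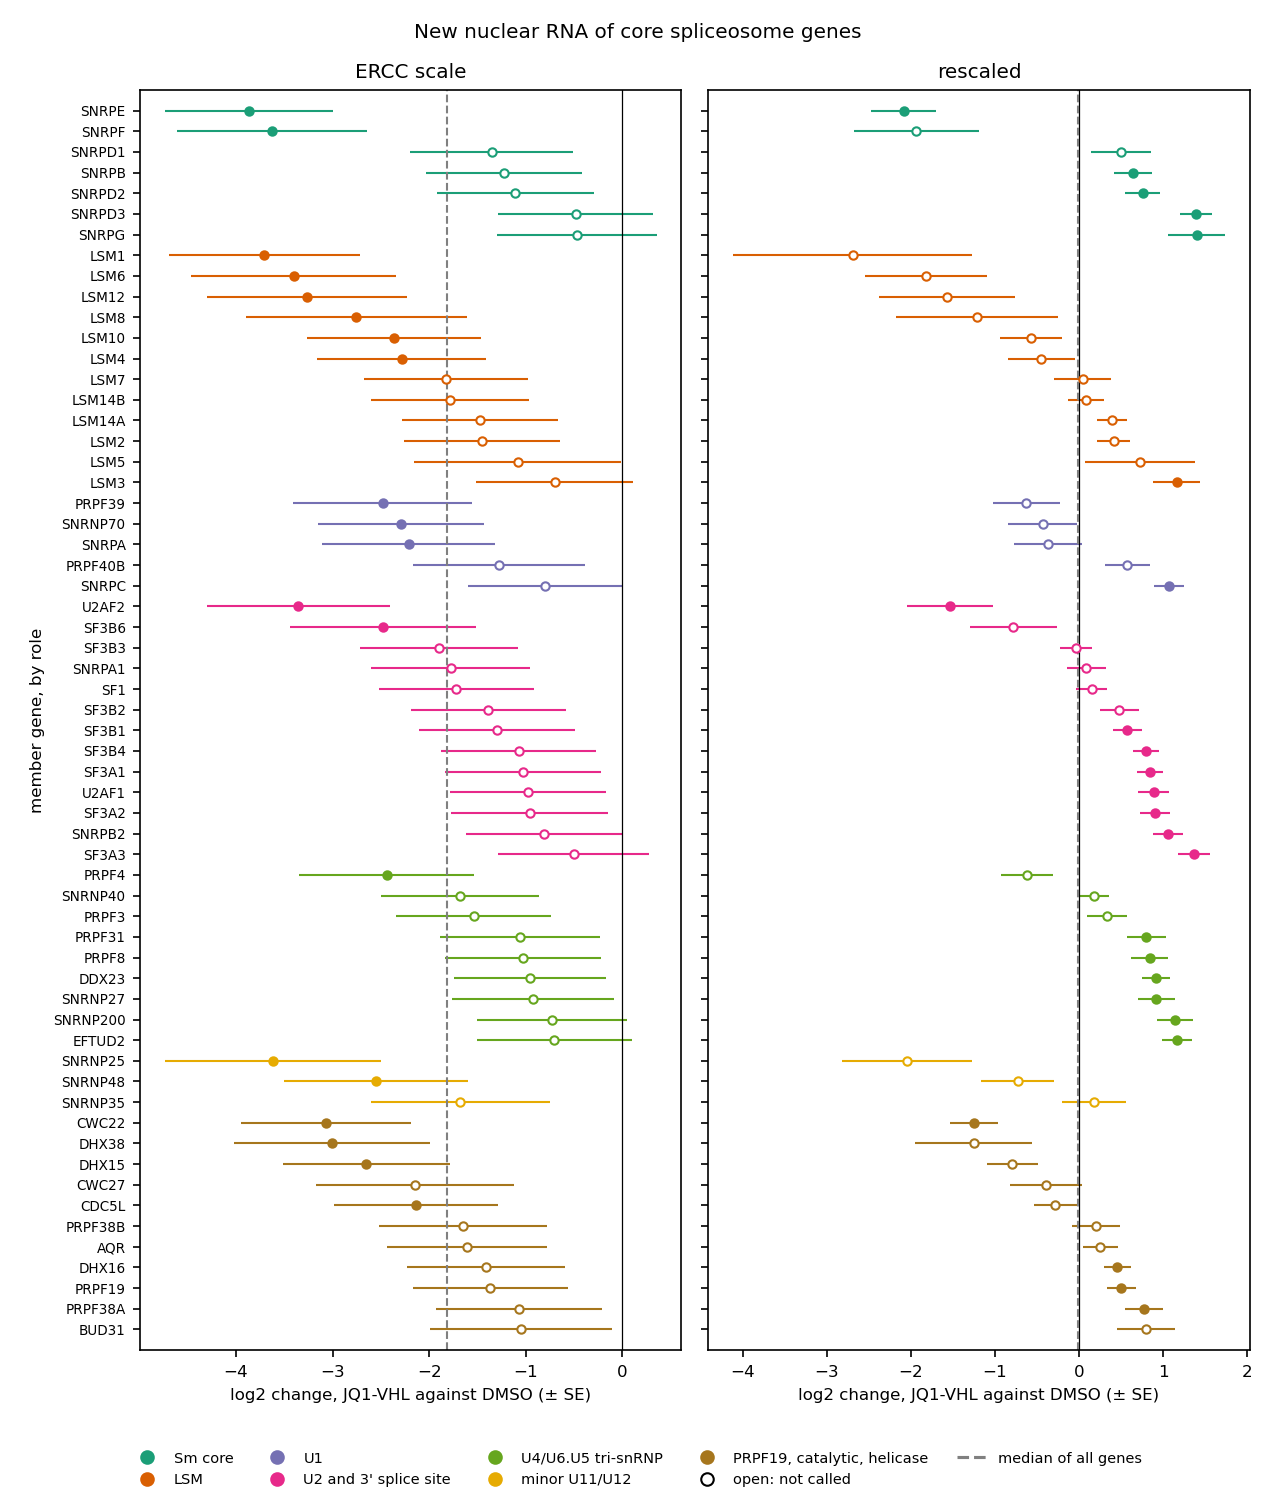
Log2 change of new nuclear RNA (JQ1-VHL against DMSO, ± SE, 3 libraries against 3) for 60 of the 61 tested members, grouped and coloured by role, on the ERCC scale (left) and rescaled (right); filled points passed an adjusted p of 0.05 and the dashed line is the median of all tested genes. All 60 points lie below 0 on the left, and SNRPG and SNRPD3 have the highest changes of the same Sm group in which SNRPE and SNRPF have the lowest.

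The 7 tested Sm genes, whose proteins form 1 ring, held both ends of the members' range of nuclear change on the ERCC scale; after rescaling LSM1 was the lowest. SNRPE (GRCh38 chromosome 1, 203861603 to 203870550, GENCODE 29) had 702, 242 and 226 units in the DMSO nuclear libraries and 36.7, 62 and 4.28 under JQ1-VHL, in replicate order. All JQ1-VHL values were below all DMSO values, and replicate 3 was the lowest. The change was -3.86 ± 0.87 (adjusted p = 0.000819), and -2.08 ± 0.39 after rescaling (adjusted p = 0.000717), so SNRPE fell on both scales. SNRPF (GRCh38 chromosome 12, 95858928 to 95903828) went from 206, 135 and 124 units to 25.5, 23.2 and 1.9, again without overlap. Its change of -3.63 ± 0.98 passed on the ERCC scale (adjusted p = 0.00436) and its rescaled change of -1.93 ± 0.75 did not (adjusted p = 0.0558). SNRPF was called lower with the replicate block on rescaled values (adjusted p = 0.0272) and with edgeR and TMM (adjusted p = 0.0279).

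At the other end, SNRPG (GRCh38 chromosome 2, 70281362 to 70293771) had 648, 326 and 345 units under DMSO and 374, 545 and 134 under JQ1-VHL. These groups overlapped, since JQ1-VHL replicates 1 and 2 lay above DMSO replicates 2 and 3. Its ERCC-scaled change was -0.47 ± 0.83 (adjusted p = 0.608), and its rescaled change 1.40 ± 0.34 (adjusted p = 0.00469). SNRPD3 (GRCh38 chromosome 22, 24555503 to 24609980) had 1013, 500.1 and 474 units under DMSO and 502, 692 and 253 under JQ1-VHL. Rescaled, the SNRPD3 values were 435, 436 and 454 against 1032, 1032 and 1449.7, with no overlap, and the rescaled change was 1.39 ± 0.19 (adjusted p = 6.07e-05). SNRPD3 overlaps GGT1 on the same strand and GUCD1 and LRRC75B on the opposite strand. Its interval 4 held 67.6% of its DMSO nuclear and 93.5% of its DMSO cytoplasmic units. Nuclear changes of its 5 intervals ran from -2.42 to 0.82 (log2, ERCC scale). SNRPD2 (0.76) and SNRPB (0.64) were also called higher on the rescaled values, and SNRPD1 (0.50) was not called. The SNRPB call was lost whichever nuclear library was left out, and with edgeR and TMM (0.46, adjusted p = 0.135). GENCODE 29 names 20 pseudogenes for SNRPG, 18 for SNRPC, 9 for SNRPE, 4 for SNRPF and 4 for LSM3, so reads of these members could be split with copies.

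**Figure D2:**
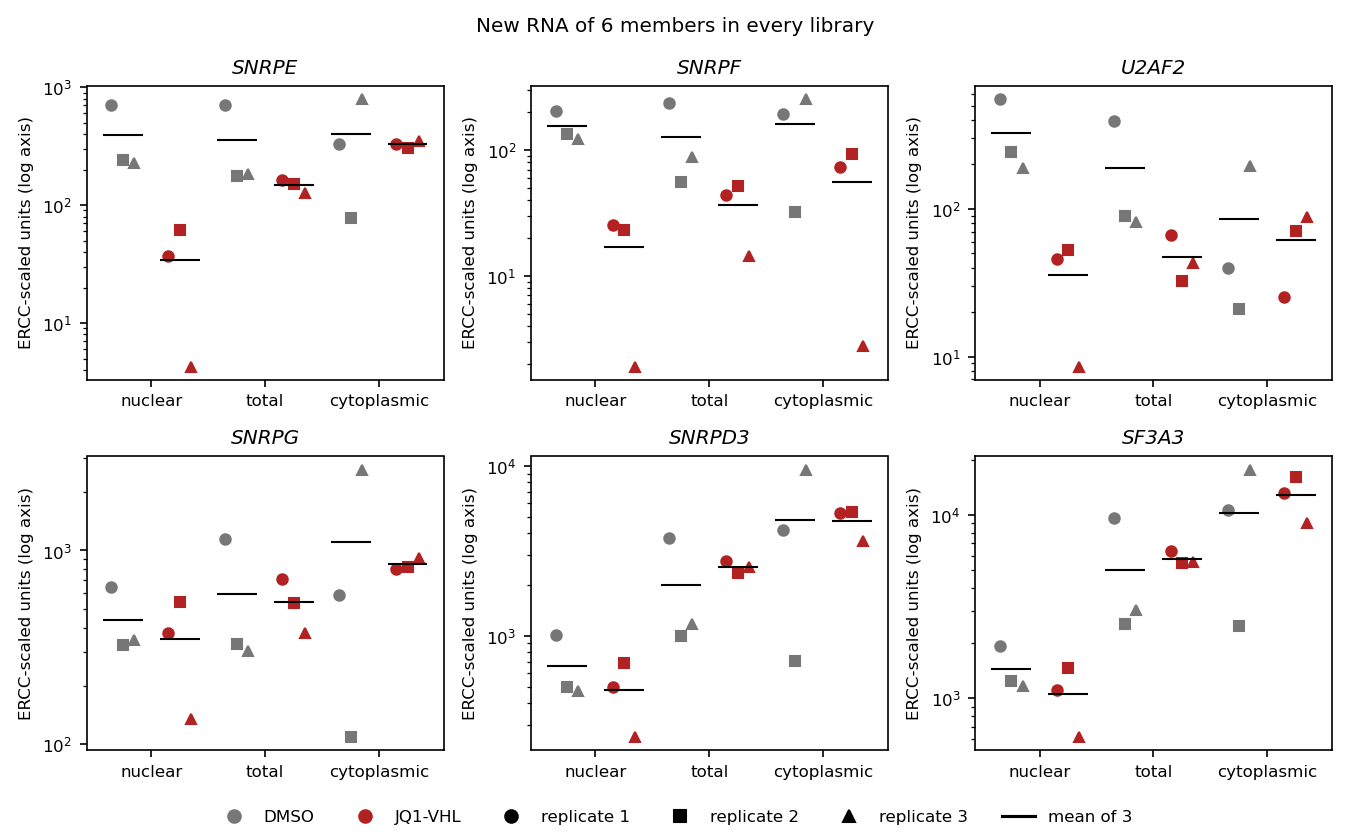
ERCC-scaled units (log axis) of 6 members in all 18 libraries, by fraction, with DMSO in grey, JQ1-VHL in red, 1 marker shape for each replicate number and a bar for the mean of 3. For SNRPE, SNRPF and U2AF2 the red nuclear points lie below all grey nuclear points, while for SNRPG, SNRPD3 and SF3A3 they overlap.

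LSM genes made up 6 of the 20 nuclear calls on the ERCC scale, 6 of 12 tested, where 33.7% of all genes were called lower. LSM2 to LSM8 form the U6 ring, LSM1 takes the place of LSM8 in a cytoplasmic ring that acts in mRNA decay, and LSM10 belongs to the U7 snRNP of histone pre-mRNA processing, so the family name covers more than splicing. Of the 12 tested, LSM1, LSM4, LSM6, LSM8, LSM10 and LSM12 fell, and the median was -2.05. LSM1, which overlaps BAG4 on the opposite strand, had 233, 95.4 and 81.4 units under DMSO and 19.7, 39.4 and 0 under JQ1-VHL. The fitted LSM1 change was -3.71 ± 0.99 (adjusted p = 0.00393), a value that depends on the added 1 unit because a library was at 0. LSM6 went from 169.5, 80.8 and 83.7 units to 18.6, 25.2 and 0.95 and LSM12 from 277, 88.1 and 81.8 to 26.6, 27.8 and 1.9, both without overlap. After rescaling 0 LSM genes were called lower in the nucleus (LSM1 -2.69 ± 1.42, adjusted p = 0.153), while LSM6 (-1.82, adjusted p = 0.0641) was called lower with the replicate block on rescaled values (adjusted p = 0.0376) and with edgeR and TMM (adjusted p = 0.0484). LSM3 was called higher (1.16 ± 0.28, adjusted p = 0.00474). LSM8, a gene of 1 interval with 25, 6 and 2 reads in the JQ1-VHL nuclear libraries, is too sparse to place closely.

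Of 6 tested U1 genes, 3 fell on the ERCC scale, against 33.7% of all genes. They were SNRNP70 (-2.29), SNRPA (-2.21) and PRPF39 (-2.48), which encode proteins specific to or associated with the U1 snRNP. The SNRNP70 and SNRPA calls were lost with edgeR on that scale (adjusted p = 0.0707 and 0.08). SNRPC, the gene of the third U1-specific protein, had 730.4, 465 and 477 units under DMSO and 397, 488 and 158 under JQ1-VHL, which overlapped. Its rescaled change was 1.07 ± 0.17 (adjusted p = 0.000255). Rescaled changes of SNRNP70 (-0.43), SNRPA (-0.37) and PRPF39 (-0.62) did not pass.

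Among 13 tested genes of the U2 snRNP and 3′ splice site recognition, 2 fell on the ERCC scale, against 33.7% of all genes, and the median was -1.30. U2AF2, the subunit that binds the polypyrimidine tract, went from 550.3, 244 and 188 units to 45.7, 52.3 and 8.55 with no overlap (-3.35 ± 0.95, adjusted p = 0.00578). It was lower after rescaling too (-1.54 ± 0.51, adjusted p = 0.0303), a call lost without DMSO nuclear replicate 1, 2 or 3 or JQ1-VHL nuclear replicate 3. Its partner U2AF1, which contacts the AG of the 3′ splice site, had 726, 392 and 311 units and 339.9, 386 and 88.4, and was higher after rescaling (0.89 ± 0.18, adjusted p = 0.00163). SF3B6 was the other member called lower on the ERCC scale (-2.48). The rescaled values of 7 genes were called higher: all 3 SF3A subunits, SF3B1, SF3B4, SNRPB2 and U2AF1, against 18.2% of all genes. The SF3B1 call was lost without DMSO nuclear replicate 1 or JQ1-VHL nuclear replicate 2. It was also lost with edgeR and TMM (0.40, adjusted p = 0.0884). SF3A3, a subunit of the complex that completes the U2 snRNP, had 1939.9, 1245 and 1166 units under DMSO and 1103, 1459 and 614 under JQ1-VHL, and a rescaled change of 1.37 ± 0.19 (adjusted p = 5.88e-05).

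Genes of the tri-snRNP had the least negative median of the 7 roles, -1.03 over 9 tested members. PRPF4, a U4/U6 protein, fell (-2.44 ± 0.91, adjusted p = 0.0286), and the other 8 did not pass on the ERCC scale. Of all genes 33.7% were called lower there. The PRPF4 call was lost with edgeR on that scale (adjusted p = 0.0524). Rescaled, 6 of 9 were called higher (PRPF8, PRPF31, DDX23, SNRNP27, SNRNP200 and EFTUD2) and 0 lower, against 18.2% and 12.6% of all genes. SNRNP200, the helicase that unwinds U4 from U6, had 4392, 2519.6 and 2739 units under DMSO and 2064, 2682 and 1206 under JQ1-VHL. EFTUD2, the GTPase of the U5 snRNP, had 1117, 568 and 497 units and 547, 613 and 218. The groups overlapped for both genes, with JQ1-VHL replicate 3 the lowest value. The rescaled changes were 1.14 ± 0.22 (adjusted p = 0.000814) and 1.17 ± 0.18 (adjusted p = 0.000169).

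In the PRPF19 complex, catalytic and helicase group, CDC5L, CWC22, DHX15 and DHX38 fell on the ERCC scale, 4 of 11 tested, a share close to the 33.7% of all genes. CWC22, a factor that brings the exon junction complex to the spliceosome, went from 284, 194 and 180.1 units to 30.3, 51 and 9.5. Its libraries did not overlap, and it was lower on both scales (-3.07 ± 0.88, adjusted p = 0.00676; rescaled -1.25 ± 0.29, adjusted p = 0.00347). DHX38, the helicase of the second step, changed by -3.01, while DHX16, the helicase that acts before the first step, changed by -1.41, which did not pass. PRPF19 (0.50), DHX16 (0.46) and PRPF38A (0.77) were higher after rescaling. Leaving out single libraries removed each of these calls at least once. With edgeR and TMM none of them passed (adjusted p = 0.172, 0.225 and 0.0626).

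The 3 U11/U12 genes had the lowest median, -2.55. SNRNP25 went from 154, 70.2 and 50.3 units to 17, 7.75 and 0.95 and SNRNP48 from 248, 139 and 153 to 39.4, 65.2 and 9.03, and both fell (-3.62 and -2.55). SNRNP35 did not pass (-1.68 ± 0.93, adjusted p = 0.127). So 2 of the 3 were called on the ERCC scale, where 33.7% of all genes were called lower. The SNRNP48 call was lost with edgeR on that scale. Rescaled, 0 of 3 were called in the nucleus at either side, and SNRNP25 was nearest the threshold (adjusted p = 0.0504). SNRNP25 was called lower with the replicate block on rescaled values (adjusted p = 0.0303) and with edgeR and TMM (adjusted p = 0.0483).

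The 20 members called lower and the 41 others differed in more than the call. As a description with no test, the cytoplasmic value over the total value in DMSO, from libraries that entered the nuclear comparison only through the shared estimate of spread, had a median log2 ratio of -0.47 (-3.02 to 1.47) in the 20 and of 0.81 (-1.28 to 1.69) in the 41. The median number of intervals was 5.5 and 8, and the median of the mean over 18 libraries was 136 and 1404 units. Genes counted by few reads and genes counted by many were therefore not evenly spread between both sets, and the part of read number in the calls was not tested.

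Promoters were compared because members with such different changes code for subunits of the same particles. RefSeq (GRCh38.p14) gave a window from 250 bases before to 50 after a start within 100 bases of the GENCODE start for 29 of 63 members. The ETS core, written CGGAAG and on the other strand read as CTTCCG, was in 13 of 29 windows (44.8%), against 36.5% of 4571 tested genes with a window. It was in 1 of 7 windows of members called lower in the nucleus and in 11 of 20 of those not called. The GC box, GGGCGG with its complement CCGCCC, was in 16 (55.2% against 73.0%), the E-box CACGTG in 2 (6.90% against 10.5%) and the TATA element, TATAAA with its complement TTTATA, in 1 (3.45% against 4.84%). In the same sets, the GC box was in 4 of 7 windows and in 11 of 20. The E-box was in 1 of 7 and 1 of 20, and the TATA element in 0 of 7 and 1 of 20. This split was not made over all tested genes, and a link between a motif and the calls was not tested. A match says only that the letters are there. A pair from near each end is printed: SNRPF and LSM12 among the lowest changes, SNRPC and SNRNP200 among the highest. The genes were chosen after their values were seen, and not by rank of change alone. Capitals mark the ETS core on either strand, read 5′ to 3′ along the gene.
SNRPF, chr12:95858702-95859001, plus strand: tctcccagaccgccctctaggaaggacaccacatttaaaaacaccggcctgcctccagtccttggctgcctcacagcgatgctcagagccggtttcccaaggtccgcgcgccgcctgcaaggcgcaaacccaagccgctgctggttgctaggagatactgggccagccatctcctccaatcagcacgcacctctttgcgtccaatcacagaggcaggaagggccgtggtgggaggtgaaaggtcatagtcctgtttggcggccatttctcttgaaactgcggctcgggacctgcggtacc
LSM12, chr17:44067538-44067837, minus strand: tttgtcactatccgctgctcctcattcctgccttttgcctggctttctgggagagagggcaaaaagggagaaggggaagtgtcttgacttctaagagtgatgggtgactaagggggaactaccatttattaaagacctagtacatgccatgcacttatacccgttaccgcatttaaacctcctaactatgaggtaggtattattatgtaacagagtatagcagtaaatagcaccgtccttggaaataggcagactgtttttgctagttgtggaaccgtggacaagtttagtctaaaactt
SNRPC, chr6:34757255-34757554, plus strand: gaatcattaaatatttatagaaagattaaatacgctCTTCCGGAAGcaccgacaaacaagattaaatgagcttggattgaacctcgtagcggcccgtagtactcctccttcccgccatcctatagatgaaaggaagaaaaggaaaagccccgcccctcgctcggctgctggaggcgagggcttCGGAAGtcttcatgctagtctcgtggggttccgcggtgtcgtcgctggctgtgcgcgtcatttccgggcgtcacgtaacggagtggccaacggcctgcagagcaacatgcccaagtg
SNRNP200, chr2:96305497-96305796, minus strand: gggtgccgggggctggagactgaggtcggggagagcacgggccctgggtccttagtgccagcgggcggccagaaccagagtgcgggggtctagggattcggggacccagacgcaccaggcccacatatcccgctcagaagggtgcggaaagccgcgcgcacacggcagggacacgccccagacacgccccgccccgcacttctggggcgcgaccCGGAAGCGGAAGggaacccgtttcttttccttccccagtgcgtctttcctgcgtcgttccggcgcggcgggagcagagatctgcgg
The SNRPF and LSM12 windows hold no copy. The SNRPC window holds 2 copies of CGGAAG and 1 of CTTCCG, with a pair overlapping at the first site, and the SNRNP200 window holds 2 adjoining copies of CGGAAG. These genes are not the most extreme members. On the ERCC scale LSM1 (-3.71) and SNRPE (-3.86) had lower nuclear changes than SNRPF and LSM12. SNRNP25, U2AF2 and LSM6 also had lower ones than LSM12. SNRPG (-0.47) had a higher one than SNRPC and SNRNP200. The changes of SNRPD3, SF3A3, LSM3 and EFTUD2 were also higher than that of SNRPC. No window of these other genes is shown, so the contrast in copies covers the printed windows alone.

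In total RNA 0 of 61 members passed on the ERCC scale, where 2.79% of all genes were called lower and 0.245% higher. At an unadjusted p under 0.05, 8 of 61 members stood apart (limma), a smaller share than the 16.8% of all genes. With edgeR on the same scale 0 members were called, against 2.29% of all genes. There 11 of 61 had an unadjusted p under 0.05, a smaller share than the 20.7% of all genes. The members' median was -0.15, and it was 0.50 without DMSO total replicate 1, and 0.01 without JQ1-VHL total replicate 3, so the sign of the typical member depended on single libraries. With the batch number as a block, LSM6 was called (-3.29, adjusted p = 0.0235), as were 5.72% of all genes. Rescaled, 18 members were higher (29.5%) and 6 lower (9.84%), against 12.2% and 18.4% of all genes. The 6 lower were LSM6 (-2.97), PRPF39 (-1.95), SNRPA (-1.77), SNRNP48 (-1.76), CWC22 (-1.52) and DHX15 (-1.31). The highest were LSM3 and EFTUD2 (both 0.94) and SNRPD3 (0.93). Without JQ1-VHL total replicate 2, 8 were higher and 7 lower, and without DMSO total replicate 1 or JQ1-VHL total replicate 3, 11 were higher. TMM scaling gave 26 higher and 6 lower, against 21.3% and 16.1% of all genes.

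In cytoplasmic RNA 1 member, LSM12, was called lower on the ERCC scale, against 3.67% of all genes, and 0 were higher, against 0.226%. LSM12 had 124, 19.3 and 105 units under DMSO and 33.5, 4.3 and 0 under JQ1-VHL, which overlapped (-3.51 ± 1.04, adjusted p = 0.0288). The reads behind the JQ1-VHL values were 16, 2 and 0, so counting error is large. The call was lost without DMSO cytoplasmic replicate 1 or 3 or JQ1-VHL cytoplasmic replicate 2 or 3. LSM12, SNRPA, SNRPF and SNRNP25 were called lower without DMSO cytoplasmic replicate 2, a count of 4, and SNRPA, SNRNP25 and LSM1 without JQ1-VHL cytoplasmic replicate 2, a count of 3. With the replicate block, SNRNP25 (adjusted p = 0.0223) and SNRPA (adjusted p = 0.0268) were called lower as well, when 6.07% of all genes were called. DMSO cytoplasmic libraries differed widely in scale: SF3A3 had 10589, 2467 and 17624 units in them. The members' median of 0.36 was -0.59 without DMSO cytoplasmic replicate 2 and 1.05 without replicate 3.

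Rescaled cytoplasmic values were higher for 22 members (36.1%) and lower for 7 (11.5%), against 14.8% and 15.9% of all genes. The 7 were LSM12 (-3.50), SNRNP25 (-3.24), SNRPA (-2.66), BUD31 (-1.26), SNRNP48 (-1.22), CWC22 (-1.19) and DHX15 (-0.99). PRPF40B (1.18), SNRPD2 (1.09), SNRNP200 (1.08) and SNRPC (1.05) were the highest. LSM2, a subunit of the U6 ring, was higher in cytoplasmic (0.99) and total RNA (0.75), and not called in the nucleus (0.41). All 9 tri-snRNP genes had a rescaled cytoplasmic change above 0, against 51.6% of all genes, and 6 of them passed, against 14.8%.

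Across fractions, 15 of 61 members (24.6%) were called higher after rescaling in nuclear, total and cytoplasmic RNA alike, against 7.14% of all genes. Among them were SNRPD2, SNRPD3, LSM3, SNRPC, SNRPB2, SF3A2, SF3A3, SF3B4, DDX23, EFTUD2, PRPF31, SNRNP200, PRPF19 and DHX16. With TMM scaling 12 members were higher in all 3 fractions, against 7.48%. CWC22 was lower in all 3 on the rescaled values (4.44% of all genes), and CWC22 and DHX15 with TMM (5.21%). The 3 fractions have separate libraries, but the labels do not say whether they came from the same dishes.

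**Figure D3:**
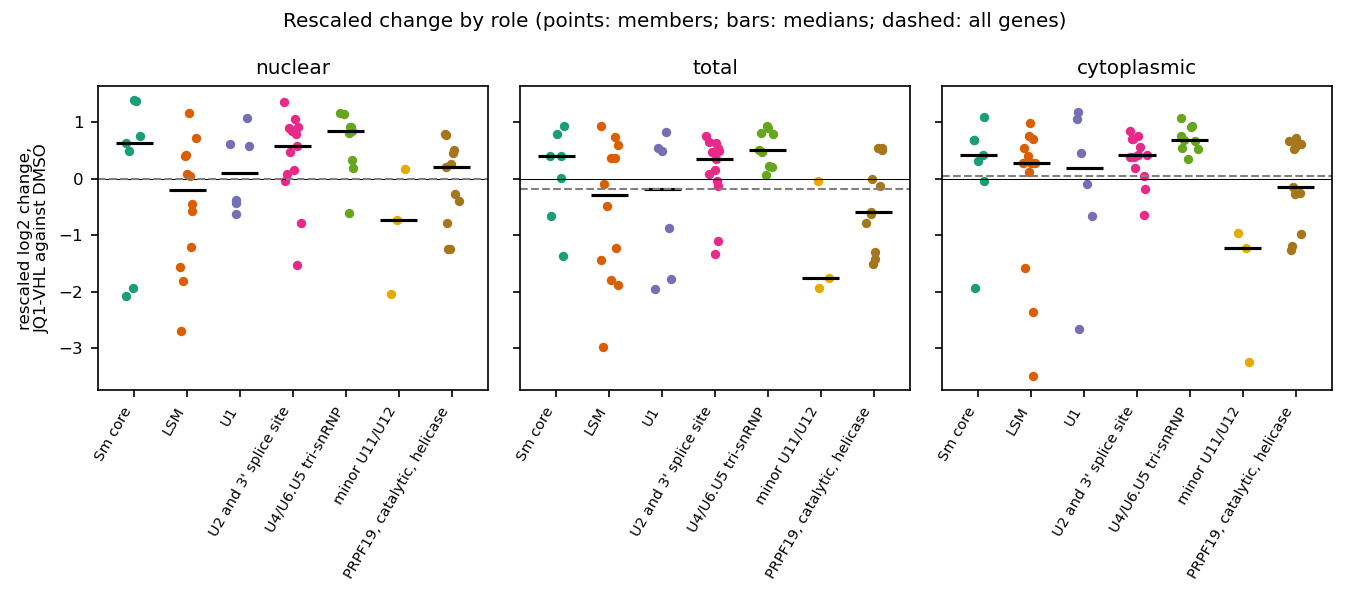
Rescaled log2 change (JQ1-VHL against DMSO) of each tested member by role in nuclear, total and cytoplasmic RNA, with a bar at the median of the role and a dashed line at the median of all tested genes. The tri-snRNP medians are 0.84, 0.50 and 0.69 and the U11/U12 medians -0.73, -1.76 and -1.22.

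Under DMSO the nuclear and cytoplasmic values of members differed by gene. On the ERCC scale 11 of 61 members were lower in the nucleus and 5 higher, while of all genes 5.92% were lower and 14.7% higher. The members' median nuclear minus cytoplasmic difference was -0.68, and that of all genes 0.63. Rescaled, 32 were lower (52.5%) and 8 higher (13.1%), against 23.8% and 33.0%. The ERCC-scale count moved with single libraries: 31 without DMSO cytoplasmic replicate 2, 8 without DMSO cytoplasmic replicate 3 or DMSO nuclear replicate 2, and 9 without DMSO nuclear replicate 3. Rescaled it stayed between 37 and 39.

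LSM3 had the lowest difference, with 222, 156 and 139 units in the DMSO nuclear libraries and 2817, 703 and 10157 in the cytoplasmic ones (-4.00 ± 0.81, adjusted p = 0.000148). Every cytoplasmic value was above every nuclear value. SNRNP27, a tri-snRNP protein, followed with 132, 89.8 and 60.7 against 1171, 223 and 3038 units (-3.36). LSM2 (-3.01), SNRPD2 (-2.95), U2AF1 (-2.72) and SNRPC (-2.67) came next, and SNRPB2, PRPF38A, SF3A3, SNRPD3 and SNRPD1 completed the 11.

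PRPF39 was the most nuclear member, with 748, 361 and 311 nuclear and 64.4, 18.8 and 38.6 cytoplasmic units (3.56 ± 0.93, adjusted p = 0.00261). DHX38 had 328, 127 and 86.1 against 26.4, 16 and 11 (3.12), and SNRNP70 1404, 585 and 510.2 against 189.9, 27.1 and 278 (2.71). All nuclear values of these 3 genes exceeded all cytoplasmic values. LSM8 (3.08) and LSM7 (2.63) were the other 2 called. Both calls were lost with edgeR on the ERCC scale (adjusted p = 0.156 and 0.0855) and without DMSO nuclear replicate 1. That of LSM7 was also lost without DMSO cytoplasmic replicate 2, and that of LSM8, with 9, 6 and 0 DMSO cytoplasmic reads, without DMSO nuclear replicate 2 or 3 or DMSO cytoplasmic replicate 3. U2AF2 (2.39) just missed the threshold (adjusted p = 0.0532) and passed with the replicate block (adjusted p = 0.0313), a fit that called 25.4% of all genes. SNRNP70 and SNRPC, both U1 genes, were called in opposite directions. The SNRNP70 call was lost without DMSO nuclear replicate 1 or DMSO cytoplasmic replicate 2. That of SNRPC was lost without DMSO nuclear replicate 2 or DMSO cytoplasmic replicate 3, and that of DHX38 without DMSO nuclear replicate 1 or 2. Only LSM2, LSM3, SNRNP27 and PRPF39 kept their calls whichever DMSO nuclear or cytoplasmic library was left out.

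**Figure D4:**
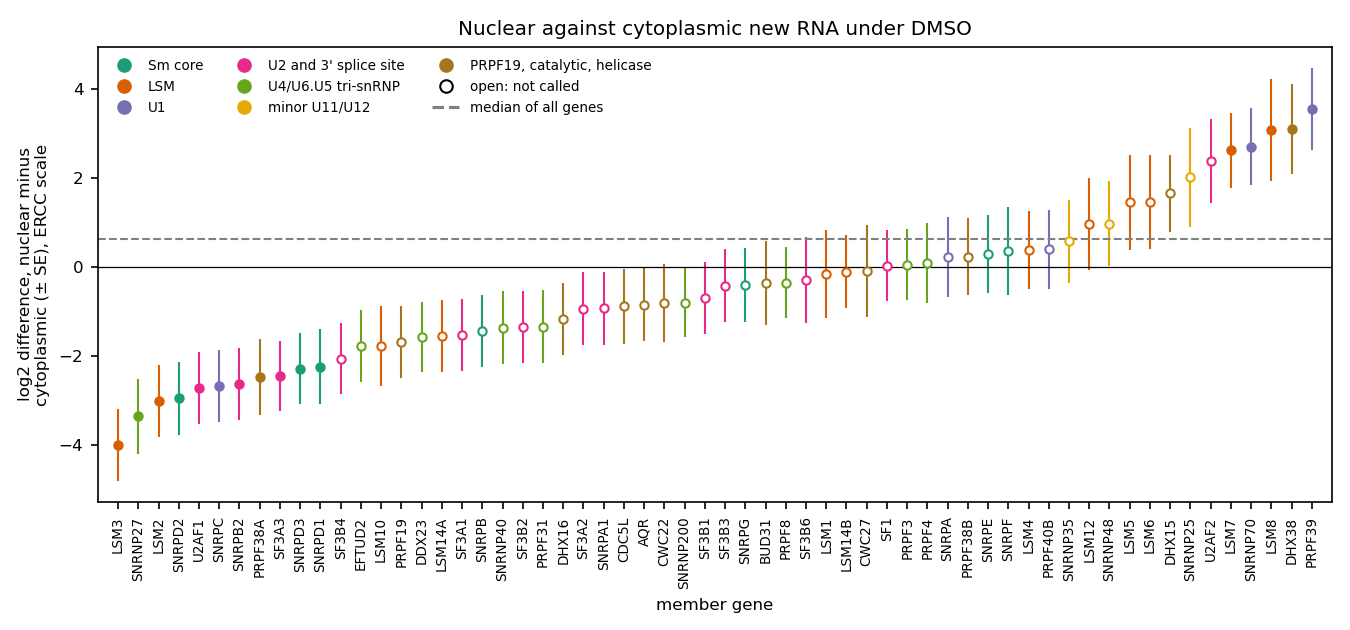
Nuclear minus cytoplasmic difference of new RNA under DMSO (log2, ERCC scale, ± SE, 3 libraries against 3) for 60 of the 61 tested members in order, coloured by role, filled where the adjusted p was under 0.05; the dashed line is the median of all tested genes. LSM3 is at -4.00 and PRPF39 at 3.56, and 38 of the members shown lie below 0.

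Under JQ1-VHL 37 of 61 members (60.7%) were lower in the nucleus than in the cytoplasm on the ERCC scale and 0 higher, against 28.8% and 3.01% of all genes. The median was -2.54, and all 9 tri-snRNP genes were among the 37. Rescaled, 36 were lower and 11 higher, against 26.0% and 38.7%. PRPF39 had 94.7, 143 and 34.2 nuclear and 44, 28 and 27.9 cytoplasmic units under JQ1-VHL, a difference of 1.23 that did not pass (adjusted p = 0.326) on the ERCC scale and passed after rescaling (2.85 ± 0.40, adjusted p = 6.15e-06). LSM3 remained the lowest, at -5.40. The DMSO and JQ1-VHL differences use separate libraries.

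Whether the drug's effect differed between nucleus and cytoplasm was tested as the difference of both effects. On the ERCC scale 0 of 61 members passed, and 0.0% of all genes did (limma). An unadjusted p under 0.05 was found for 10 members (16.4%), close to the 15.3% of all genes (limma). With edgeR on this scale 0 members were called, and 3 (4.92%) had an unadjusted p under 0.05, against 8.03% of all genes. SNRPE was called without DMSO cytoplasmic replicate 3. Rescaled, SNRPA and BUD31 were higher (1.44% of all genes) and SNRPE lower (1.38%), and SNRPE's call, like the other 2, was lost when DMSO nuclear replicate 2 or 3 was left out. SNRPA had 277, 184 and 213 rescaled units in DMSO nuclear RNA and 267, 216 and 87 under JQ1-VHL, but 219.8, 232 and 186 and 33.2, 53 and 19.5 in the cytoplasm. Its cytoplasmic libraries did not overlap and its nuclear ones did. SNRPE showed the converse, with 330.2, 78.4 and 788 ERCC-scaled units in DMSO cytoplasm and 327, 305 and 348 under JQ1-VHL, beside the nuclear fall given above. SNRPA overlaps ACTMAP, and BUD31, a factor of the catalytic spliceosome, overlaps PDAP1 and PTCD1, in each case on the opposite strand; the strand counted is not given in the sources used here.

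Values by interval showed where in a gene the reads lay; they are described with no test, and the genes were chosen after their values were seen. For 36 of 63 members the highest interval number equalled the number of gaps between merged exons in GENCODE 29, but what an interval counts is not stated. Of 59 members with at least 3 intervals, 44 had some intervals higher and some lower in the nucleus than in the cytoplasm under DMSO, 10 had all lower and 5 all higher. SNRNP70 was one of the 5, and its interval 9 held 65.1% of its DMSO nuclear units (542 ± 306, SD, n = 3) and 40.3% of its cytoplasmic units (66.5 ± 46.9). Under JQ1-VHL that interval had 129 ± 101 nuclear units.

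SF3B1, the U2 subunit that clamps the branch site, had 4 neighbouring intervals, 10 to 13, with 583, 498, 256 and 256 cytoplasmic units under DMSO. None of its other 22 intervals exceeded 69.9 there. JQ1-VHL cytoplasmic values in intervals 10 to 13 were 454, 415, 202 and 202, while interval 16 went from 11.6 to 0.466. These 4 intervals held 72.2% of its DMSO cytoplasmic and 31.2% of its DMSO nuclear units.

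In SNRPE the cytoplasmic units of interval 1 were 264 ± 272 under DMSO and 314 ± 27.3 under JQ1-VHL, a difference within the spread. Intervals 2 and 3 went from 67.4 and 67.8 to 7.52 and 4.77. In the nucleus all 3 were lower under JQ1-VHL, with 14, 2.94 and 17.4 units against 144, 63.5 and 182. SNRPG differed by interval too: interval 1 went from 199 ± 91.3 nuclear units to 63.6 ± 43.2, and interval 4 from 79.5 ± 25.1 to 152 ± 73.4. SNRPG interval 1 held 45.3% of its DMSO nuclear and 5.49% of its cytoplasmic units. Similar single intervals were interval 1 of PRPF19 (36.4% of nuclear and 1.38% of cytoplasmic units), interval 12 of SF1 (20.1% and 1.75%) and interval 8 of SNRNP48 (49.9% and 5.55%).

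**Figure D5:**
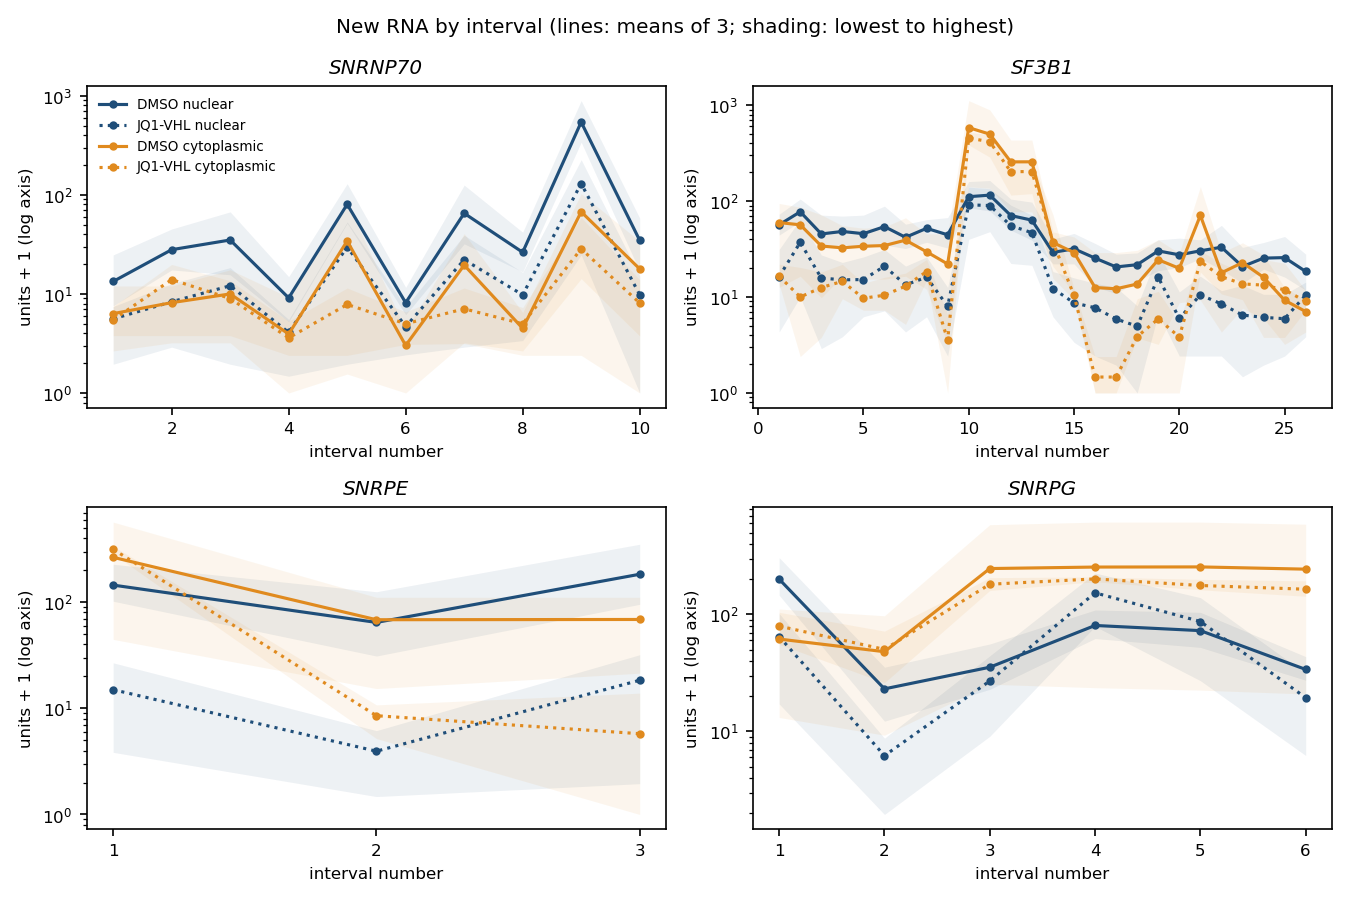
Units + 1 (log axis) by interval number for SNRNP70, SF3B1, SNRPE and SNRPG in nuclear (blue) and cytoplasmic (orange) RNA, under DMSO (solid) and JQ1-VHL (dotted), as means of 3 libraries with shading from the lowest to the highest. SF3B1 is highest at intervals 10 and 11 in all 4 groups, and in SNRPE the dotted cytoplasmic line stays high at interval 1 only.

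Other genes of the pathway come from lists of genes that are no members. Of 35 tested genes of further spliceosomal proteins, 14 fell in the nucleus and 0 rose, with a median of -1.94. After rescaling 12 of them were higher and 7 lower. Of 9 tested minor spliceosome genes, 4 fell (median -2.10), and 2 were higher and 0 lower after rescaling. The 18 tested genes of snRNP assembly, among them the SMN complex and the PRMT5 methylosome, had 10 falls and a median of -2.40; after rescaling 1 was higher and 3 lower. These shares stand beside 33.7% lower on the ERCC scale, and 18.2% higher and 12.6% lower after rescaling, over all genes.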

How the data were processed

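Newly made polyadenylated RNA was measured in 18 libraries: DMSO and JQ1-VHL, each in total, nuclear and cytoplasmic RNA, with 3 libraries per group. The deposited values are of the unit signal: T-to-C read counts which the authors scaled by 1 ERCC factor per library, per the table's name. Whole reads were recovered from the steps of each column (100% of values within 0.01 of a read). Builds listed in the submitters' processing notes are GRCh37/hg19 and dm3; the tools listed there, with neither role nor order, are Trimmomatic 0.39, HISAT2, HTSeq, bcl2fastq and DESeq2. How T-to-C reads were called, the strand and the counting rule are not given in the sources used here. ERCC RNA went in after extraction, by RNA mass, and Drosophila cells before permeabilisation, per the labels' protocols; no Drosophila value was used here.

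The 98665 intervals were summed per gene ID (12755 IDs, 12512 with a symbol in the reference). A fragment counted in several intervals, if any was, would add each time. Because the strand is not known, overlapping genes matter: 24 of the 63 members overlap another coding gene. Genes with a mean of at least 10 units (10191) were tested with limma 3.58.1 (trend, robust eBayes; R 4.3.3) on log2(value + 1), with 1 mean per group over all 18 libraries, two-sided, with Benjamini-Hochberg adjustment over all tested genes at 0.05. Fold changes on this scale are understated for low genes. The prior degrees of freedom were infinite on the ERCC scale, so the variance was treated as known and calls carry more certainty than 3 libraries can give; on rescaled values they were 6.74. An exact permutation test of 3 against 3 cannot give a p under 0.1. Rescaled values were divided by median-of-ratios factors over genes above 0 in every library. edgeR 4.0.16 (quasi-likelihood, on recovered reads, with ERCC or TMM scaling), pseudocounts of 0.1 and 10, no filter, the highest interval per gene, fits to single comparisons and left-out libraries were alternatives; rescaled values with left-out libraries and the members that overlap no coding gene were added after seeing the data. The fits were first run on simulated counts in which the scale of each library was known without error. That run therefore says nothing about error in the ERCC scale.

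In the labels the batch and replicate numbers coincide. Whether libraries of the same number are paired by dish is not stated there. Deviations of genes from the group means, compared between DMSO and JQ1-VHL libraries of 1 number, correlated at 0.222, 0.075 and 0.156 in total, 0.274, -0.145 and 0.287 in nuclear, and 0.062, -0.053 and 0.02 in cytoplasmic RNA. The number entered as a replicate block in an alternative.

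The members and lists were chosen with earlier results of these data known. Named with values were, for each role, the member with the highest mean and the lowest and highest nuclear change, all called members of a comparison where they were at most 12 and otherwise the 6 lowest and 6 highest, and the 2 lowest and 2 highest nuclear against cytoplasmic differences in DMSO. Other members named with values were chosen after those were seen. 1 tested member is counted and not reported by name here. Promoter windows are RefSeq's, and gene coordinates are GENCODE 29's (GRCh38), while the table has none. Python 3.11.15 with pandas did the sums. Amplified copies of 1 molecule could not be told apart, so precision read from read numbers covers counting error only.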

Additional observations from a re-analysis of the deposited data

Results flagged for a closer look

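For 3 members the effect of JQ1-VHL differed between nucleus and cytoplasm by the test of that difference on rescaled values (limma). The difference of effects, nuclear minus cytoplasmic, was 2.295 for SNRPA (adjusted p = 0.0385), 2.054 for BUD31 (adjusted p = 0.0304) and -2.402 for SNRPE (adjusted p = 0.0249), on the log2 scale. edgeR with TMM scaling called the same 3 genes. On the ERCC scale 0 members passed.

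SNRPA, a U1 snRNP gene, fell in rescaled cytoplasmic RNA by 2.66 and changed by -0.37 in the nucleus, which did not pass. BUD31 fell by 1.26 in the cytoplasm and was at 0.80 in the nucleus, not called. SNRPE fell by 2.08 in the nucleus and was at 0.32 in the cytoplasm, not called.

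Few reads stand behind these values. SNRPA had 22, 39 and 11 reads in the JQ1-VHL cytoplasmic libraries, BUD31 24, 29 and 26, and SNRPE 69, 96 and 9 in the JQ1-VHL nuclear libraries. All 3 calls were lost without DMSO nuclear replicate 2 or 3. They held together without JQ1-VHL cytoplasmic replicate 1 or 2, JQ1-VHL nuclear replicate 3 or DMSO cytoplasmic replicate 3, and 1 of them held when any other single library was left out. SNRPA and BUD31 overlap coding genes on the opposite strand, and SNRPE overlaps none; the part of overlap in these values was not tested.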

How the results depend on the processing

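The count of members called depended on scale and on single libraries. On the ERCC scale the nuclear count was 20, all lower. It was 26 rescaled (23 higher), 30 with the replicate block on rescaled values (23 higher), 24 with edgeR and TMM (17 higher), 12 with edgeR on the ERCC scale, and 32 with only the libraries of the comparison. Of the 20 members called lower, 3, 7 and 7 were still called lower under the first 3 of these settings and 0 were called higher, so the higher calls were of other members. LSM6, SNRNP25, SNRPF and DHX15 were called lower under the second and the third, and not under the first. With edgeR on the ERCC scale, CDC5L, LSM4, LSM8, PRPF4, SF3B6, SNRNP48, SNRNP70 and SNRPA were not called. That fit called 2578 of all 10191 genes lower and 17 higher, and TMM called 14.8% higher and 15.9% lower. Shares over all genes were not counted with left-out libraries, other pseudocounts, no filter or the highest interval. Nor were they for single-comparison fits and the replicate block on rescaled values. Counts there are no result about the members.

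The total count of 0 was 24 rescaled, 28 with the replicate block on rescaled values, 32 with TMM, 2 (LSM6 and SNRNP48) with the highest interval per gene, and 1 with a pseudocount of 10, with no filter, with the replicate block or with only the libraries of the comparison. The cytoplasmic count of 1 was 29 rescaled, 32 with the replicate block on rescaled values, 29 with TMM, 3 with a pseudocount of 0.1 or with the replicate block, 0 with a pseudocount of 10, edgeR on the ERCC scale, the highest interval or only the libraries of the comparison, and 1 among the 38 members that overlap no coding gene. For the difference of effects, the count of 0 was 3 rescaled, with the replicate block on rescaled values and with TMM; its rescaled count of 3 was 1 among those 38. The nuclear against cytoplasmic count in DMSO of 16 was 40 rescaled, 40 with the replicate block on rescaled values, 43 with TMM, 30 with the highest interval and 2 with only the libraries of the comparison. With the replicate block 21 members were called in the nucleus (SF3B3 was added, adjusted p = 0.0426), 18 between fractions in DMSO (SF3B4, adjusted p = 0.0388, and U2AF2) and 38 under JQ1-VHL (LSM4, adjusted p = 0.0349). Apart from these and the calls of LSM6, SNRNP25 and SNRPA given above, the block on the ERCC scale changed no call of a member. Over all 10191 genes that block called 4238 lower and 26 higher in the nucleus. Between fractions under JQ1-VHL it called 3165 lower and 455 higher. TMM called 1527 genes higher and 1460 lower in cytoplasmic RNA, and 3728 higher and 2356 lower between fractions in DMSO. For the difference of effects TMM called 108 higher and 237 lower.

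Leaving out 1 library gave 0 to 23 calls in nuclear, 0 to 0 in total and 0 to 4 in cytoplasmic RNA, 0 to 1 for the difference of effects, 8 to 31 between fractions in DMSO and 27 to 40 under JQ1-VHL. Rescaled, the ranges were 20 to 25, 15 to 25, 20 to 34, 0 to 4, 37 to 39 and 45 to 49.

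In the nucleus 11 named members that were not called on the ERCC scale were higher after rescaling, with the same values under the replicate block. The changes, rescaled and then with TMM, were 1.40 and 1.22 for SNRPG, 1.39 and 1.22 for SNRPD3, 1.37 and 1.20 for SF3A3, 1.17 and 0.995 for EFTUD2, 1.16 and 1.01 for LSM3, 1.14 and 0.980 for SNRNP200, 1.07 and 0.871 for SNRPC, 0.918 and 0.735 for SNRNP27, 0.892 and 0.734 for U2AF1, and 0.757 and 0.579 for SNRPD2; PRPF19 was at 0.503 rescaled and not called with TMM. The cause of the other changes was not tested. Members with few reads, such as LSM8 and LSM12, are limited by depth.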
